A study of Mus musculus with 16 samples.

Results

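Insulin and the insulin-like growth factors (IGFs) signal through a small set of ligands, receptors, docking proteins and secreted binding proteins, and 10 genes of this set were followed across cultured mouse cortical cells: the ligand genes Igf1 and Igf2, the receptor genes Igf1r, Igf2r and Insr, the adaptor genes Irs1 and Irs2, and the binding protein genes Igfbp2, Igfbp3 and Igfbp5. They were chosen by name, through the RefSeq accession that each array probe carries, and make up 10 of the 21368 genes named on the array and 17 of its 55681 probes. All 10 were found, with 4 probes for Igf1, 3 for Insr, 2 each for Irs1 and Igfbp2, and 1 for each of the others. The probe with the highest mean signal over the 16 arrays stands for a gene unless another probe is named.

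Expression was measured on 16 one-colour arrays, 4 in each of 4 groups of primary C57BL/6 cultures: neurons given vehicle, neurons given Klotho, astrocytes given vehicle and astrocytes given Klotho. Klotho is a protein of kidney and brain whose shed form circulates, and it was added as recombinant secreted protein at 1 nM for 24 h, against phosphate-buffered saline in the control groups. Neuron cultures were made from the cortex of embryos at day 16 and received treatment after 14 days in vitro in a defined neuronal medium. Astrocytes, by the growth protocol, came from pups of postnatal day 0 to 5, grew in serum and were shaken for 15 h to a stated purity above 98%, while their sample labels also carry embryonic day 16. Whether replicates are separate cultures is not labelled, so every p-value rests on a spread among 4 arrays that may be purely technical. Because each array holds RNA of a whole culture, fewer cells of a type and less RNA per cell cannot be told apart.

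The identity of the astrocyte arrays is in doubt. Of the 8 astrocyte columns in the deposited value table, 6 equal the scanner file of another astrocyte sample, and 4 of these 6 equal an array of the other treatment. All 8 neuron columns equal their own array. Each Klotho comparison in astrocytes is therefore given under both assignments, by scanner file and by value table, and which one is right could not be settled. The difference between cell types does not depend on the assignment. Between 57.5% and 67.3% of spots were well above background on each array, and arrays of a group correlated with r from 0.958 to 0.992. The neurons lay on 1 slide and the astrocytes on 2 others, so cell type, slide, medium and age of the source animals cannot be told apart. Astrocyte marker genes had a summed log2 level of 8.21 to 8.98 on astrocyte arrays and 6.63 to 7.64 on neuron arrays. Neuronal markers had one of 8.33 to 8.77 on neuron arrays and 5.03 to 6.71 on astrocyte arrays. Of these 7 neuronal markers 6 were above background on every astrocyte array, and the glutamate transporter gene Slc17a7 was on none. All 7 markers of microglia were above background on every astrocyte array, with a summed level of 5.61 to 6.74 against -0.05 to 1.12 on neuron arrays. Markers of the oligodendrocyte lineage had a summed level of 4.90 to 6.96 on astrocyte arrays and 6.34 to 7.16 on neuron arrays.

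As background, insulin, IGF1 and IGF2 bind the related tyrosine kinase receptors encoded by Insr and Igf1r, which recruit the docking proteins IRS1 and IRS2 and through them the kinases PI3K and Akt. The IGF2 receptor is of another kind: it carries IGF2 and mannose 6-phosphate-tagged enzymes to lysosomes and does not signal through a kinase domain. IGF binding proteins hold IGFs outside cells, prolonging their life and limiting or presenting them to the receptors, and secreted proteases such as pappalysin release them. In brain, IGF1 supports the growth and survival of neurons and glia, and Klotho has been described as a restraint on insulin and IGF1 signalling in other tissues.

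The first comparison set astrocyte against neuron cultures over both treatments. All 3 binding protein genes, the ligand gene Igf1, the adaptor gene Irs1 and the lysosomal receptor gene Igf2r were higher in astrocyte cultures, and no gene of the set was lower. Insr, Igf1r and Irs2 did not pass the test, and Igf2 was not above background. Of the 9 genes that passed the filter on dim probes, 6 were called higher and 0 lower at an adjusted p below 0.05 (limma, Benjamini-Hochberg over all 27559 units tested, a unit being a named gene's brightest probe or a probe with no gene name). Cultures of the 2 cell types differed at 70.5% of all units, 29.9% being higher and 40.6% lower in astrocytes, so a call by itself says little here. In the same 6 genes the 8 astrocyte arrays did not overlap the 8 neuron arrays, which held for 44.2% of all units and, with astrocytes higher, for 19.2%. The median log2 difference was 1.20 over the 9 genes and -0.18 over all units.

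**Figure D1:**
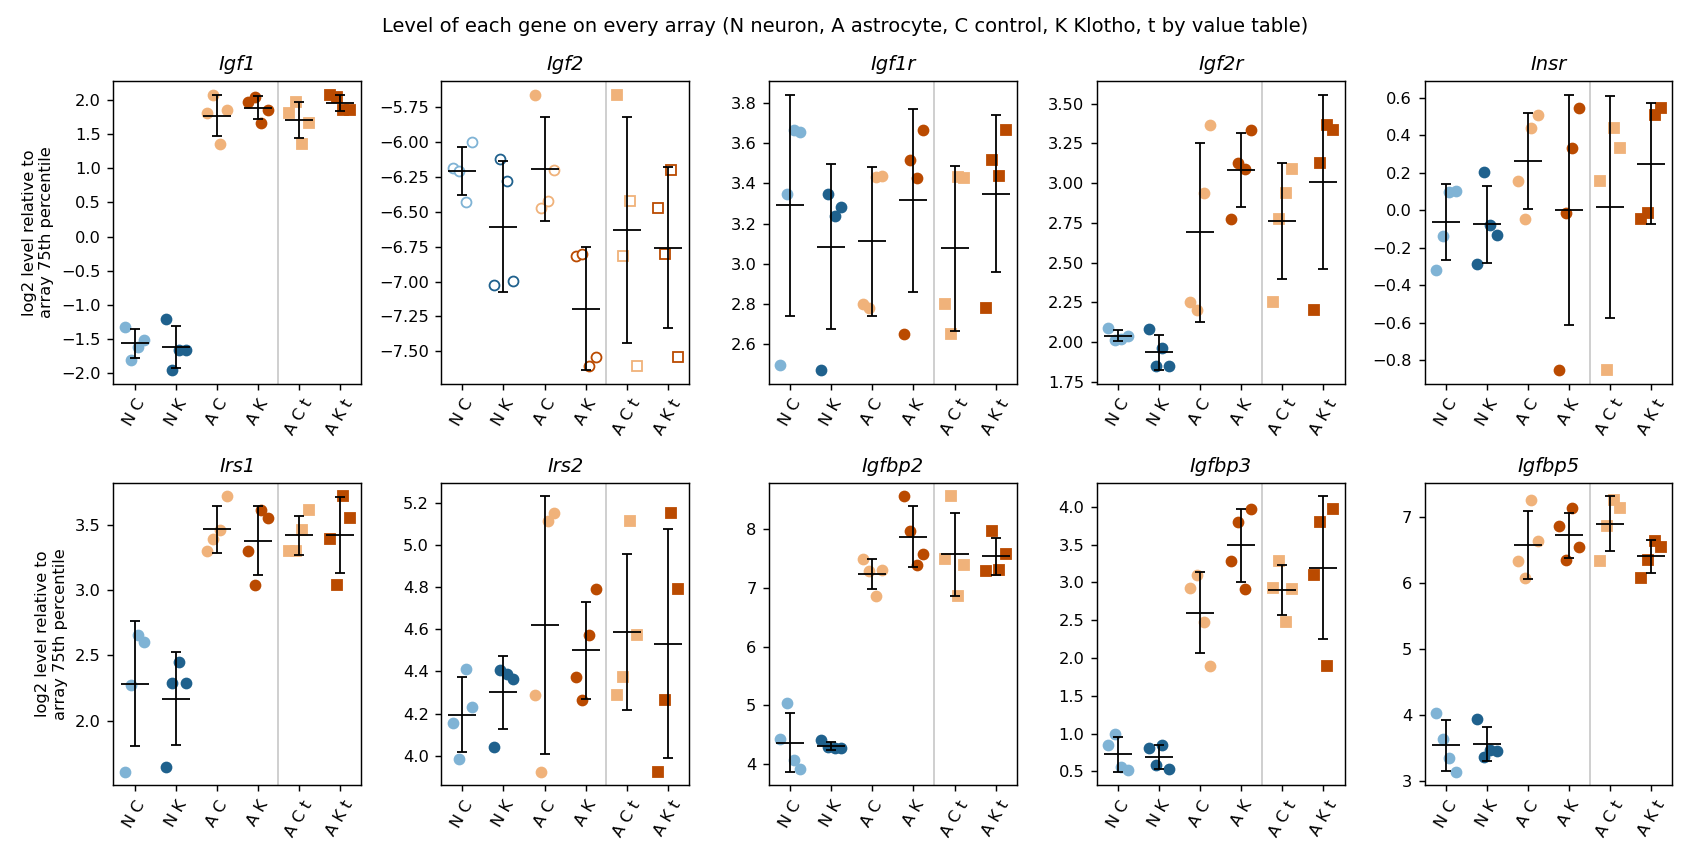
Log2 level of each gene relative to the array's 75th percentile (y axis, a separate scale for each gene) on every array, by group; the 4 groups on the left of each panel follow the scanner files, and the squares on the right regroup the 8 astrocyte arrays by the value table. Points are arrays, bars are the mean and SD of 4 arrays, and open points are not well above background; astrocyte and neuron arrays are apart for Igf1, Igf2r, Irs1, Igfbp2, Igfbp3 and Igfbp5, while control and Klotho arrays overlap in every panel but that of Igf2 by scanner file.

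The promoters of 5 genes are shown for the stretch where transcription starts. The 250 bases before the start are printed from the RefSeq promoter table of build GRCm38.p6 on the gene's own strand, 5′ to 3′: Igf1 at chr10:87860861-87861110 (plus strand), Igfbp2 at chr1:72824230-72824479 (plus strand, the first of its 2 windows), Igfbp5 at chr1:72874866-72875115 (minus strand), Irs1 at chr1:82291440-82291689 (minus strand) and Igf1r at chr7:67952007-67952256 (plus strand). The first 4 belong to genes that were higher in astrocyte cultures, and Igf1r is the receptor gene whose level was nearest to equal. Capitals mark the GC box GGGCGG and the E-box CACGTG, each searched on both strands.
Igf1: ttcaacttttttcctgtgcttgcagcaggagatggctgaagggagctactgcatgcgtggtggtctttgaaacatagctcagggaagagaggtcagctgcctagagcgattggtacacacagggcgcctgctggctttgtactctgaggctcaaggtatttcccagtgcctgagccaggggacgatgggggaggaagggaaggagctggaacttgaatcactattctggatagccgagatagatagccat
Igfbp2: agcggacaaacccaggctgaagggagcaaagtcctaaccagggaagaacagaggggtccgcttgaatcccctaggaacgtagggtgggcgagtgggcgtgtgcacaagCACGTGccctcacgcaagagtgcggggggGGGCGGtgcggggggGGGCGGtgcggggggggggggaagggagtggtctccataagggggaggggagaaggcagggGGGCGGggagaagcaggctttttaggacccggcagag
Igfbp5: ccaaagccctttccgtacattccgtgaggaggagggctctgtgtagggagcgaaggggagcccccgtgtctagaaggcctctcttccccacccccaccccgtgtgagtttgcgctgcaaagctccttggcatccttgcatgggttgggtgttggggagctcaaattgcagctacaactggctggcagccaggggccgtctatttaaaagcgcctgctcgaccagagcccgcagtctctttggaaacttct
Irs1: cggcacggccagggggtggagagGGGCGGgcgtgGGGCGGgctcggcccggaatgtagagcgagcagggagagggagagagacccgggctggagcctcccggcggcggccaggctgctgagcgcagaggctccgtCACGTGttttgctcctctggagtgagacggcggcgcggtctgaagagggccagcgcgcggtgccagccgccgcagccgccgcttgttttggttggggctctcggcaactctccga
Igf1r: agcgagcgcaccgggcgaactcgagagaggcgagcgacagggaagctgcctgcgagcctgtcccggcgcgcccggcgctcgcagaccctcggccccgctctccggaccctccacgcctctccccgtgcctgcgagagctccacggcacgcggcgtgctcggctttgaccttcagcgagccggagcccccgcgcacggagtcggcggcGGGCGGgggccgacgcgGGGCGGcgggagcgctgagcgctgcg
The share of G and C was 52.8% for Igf1 and 58.8% for Igfbp5, against 67.2% for Igfbp2, 72.4% for Irs1 and 77.6% for Igf1r, and the median over all 32851 windows of the table was 52.4%. The table held 13 windows for 9 of the 10 genes, from 47.6% (an Igf2 window) to 77.6%. A GC box stood in 7 of these 13 windows and in 32.7% of all windows, and an E-box in 4 of 13 and in 6.02% of all. The TATA sequence TATAAA stood in 0 of 13 and in 12.4% of all, and the forkhead motif TGTTTAC in 0 of 13 and in 3.17% of all. Igfbp2 and Igfbp5, neighbours on chromosome 1 that are transcribed towards each other, differ in these letters: the Igfbp2 window printed holds 3 GC boxes and 1 E-box, and that of Igfbp5 holds neither. The other Igfbp2 window, at 56.4% G and C, holds neither as well, so the contrast rests on the window chosen. These are descriptions of letters in a window, and nothing measured here tests whether a factor binds them.

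Igf1, the ligand that acts on both neurons and glia, had the largest difference of the set by its brightest probe, a rank that it lost to all 3 binding protein genes when averaged over its probes. On the 8 neuron arrays its log2 level ran from -1.95 to -1.20 with a median of -1.63, and on the 8 astrocyte arrays from 1.35 to 2.07 with a median of 1.85. No astrocyte array came near the neuron range. The difference was 3.42 ± 0.14 (SE, 8 arrays against 8, adjusted p = 4.8e-12, limma). The gene is also a known product of microglia, whose markers were higher in the astrocyte cultures as given above, and their part in this result was not tested.

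The 4 probes of Igf1 did not give 1 answer. Probe A_55_P2085984 behaved like the brightest probe A_55_P2031631, with a difference of 3.63 ± 0.13 and no overlap of the cell types. Probe A_55_P2085974 ran from -0.21 to 0.94 in neurons and from -0.36 to 0.26 in astrocytes, a difference of -0.18 ± 0.18 (adjusted p = 0.368, limma over all probes). The fourth, A_55_P2031636, was lower in astrocytes by -0.51 ± 0.18 (adjusted p = 0.0173, limma over all probes), although its ranges overlapped. All 4 were above background on all 16 arrays. All 4 are assigned to the same transcript accession, and where on the transcript each one lies was not analysed here. The choice of probe matters more than usual for this gene, because the means over 16 arrays of the brightest probe and of A_55_P2085974 were 0.119 and 0.115. Averaged over the 4 probes the difference was 1.59, still called but below those of Igfbp2, Igfbp3 and Igfbp5.

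**Figure D2:**
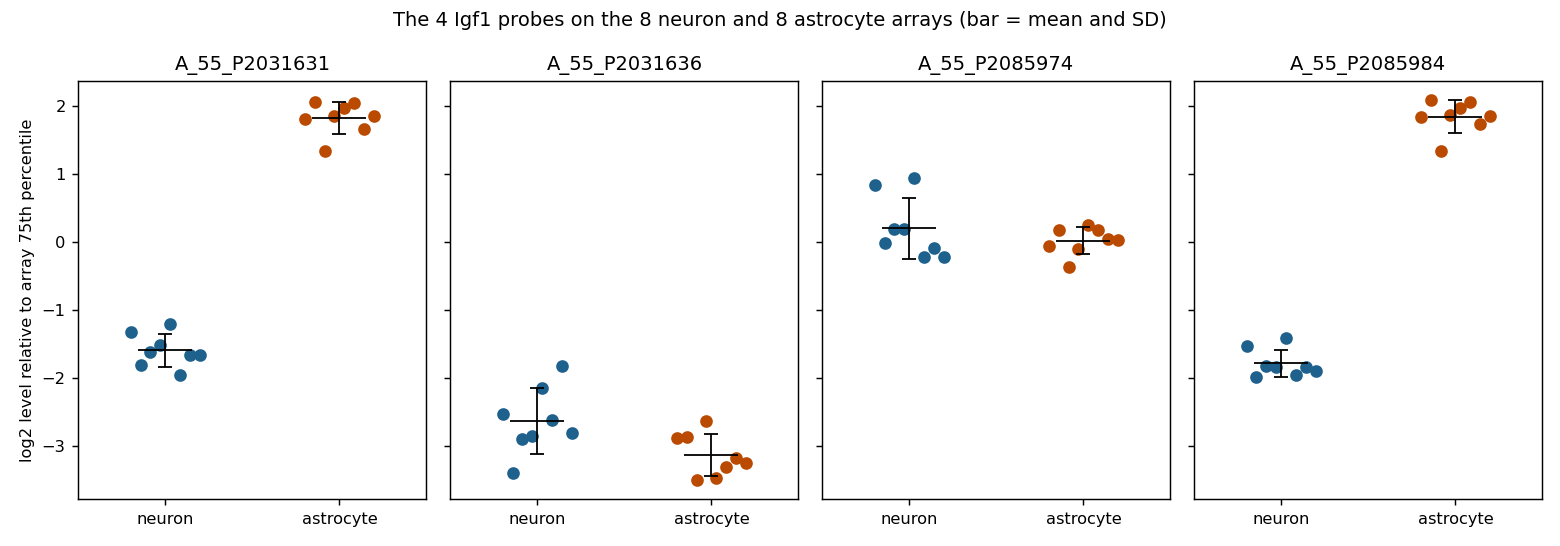
Log2 level relative to the array's 75th percentile (y axis) of the 4 Igf1 probes on 8 neuron and 8 astrocyte arrays; points are arrays and bars the mean and SD. Astrocyte arrays lie above all neuron arrays for A_55_P2031631 and A_55_P2085984, and the cell types overlap for the other two.

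Igf2, the other ligand gene, was above background on 1 of 16 arrays, an astrocyte control array by both assignments, at a log2 level of -5.66. Its other 15 arrays lay between -7.61 and -6.00, where values cannot be ordered. It was not tested in any comparison and no fold is given. Among the genes that act on Igf2 messenger RNA, Igf2bp3 was lower in astrocytes (-2.19 ± 0.16), Igf2bp2 was higher (1.13 ± 0.19) and Igf2bp1 did not pass the test.

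The receptor genes split. Igf2r ran from 1.85 to 2.09 in neurons and from 2.20 to 3.37 in astrocytes, with no overlap and a difference of 0.90 ± 0.16 (adjusted p = 0.00013, limma). Igf1r, the kinase receptor for both IGFs, ran from 2.47 to 3.66 in neurons and from 2.65 to 3.66 in astrocytes, nearly the same range. Its difference of 0.02 ± 0.22 had a 95% interval of -0.44 to 0.49 and turned negative under 9 of 27 alternatives, so no direction is given. Insr, the insulin receptor gene, ran from -0.32 to 0.20 in neurons and from -0.85 to 0.55 in astrocytes. Its difference of 0.20 ± 0.18 did not pass the test (adjusted p = 0.335, limma), and without the lowest astrocyte array, Klotho replicate 1, it was 0.34 and passed (adjusted p = 0.0376, limma). The third Insr probe, A_55_P2173927, gave -0.17 ± 0.24, a sign opposite to the other two.

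The docking protein genes differed from each other. Irs1 ran from 1.61 to 2.66 in neurons and from 3.04 to 3.72 in astrocytes, a difference of 1.20 ± 0.17 (adjusted p = 1.5e-05, limma) with no overlap. Its second probe gave 1.45 ± 0.13. Irs2 ran from 3.98 to 4.41 in neurons and from 3.92 to 5.15 in astrocytes, so the astrocyte arrays spread on both sides of the neuron arrays. Its difference of 0.31 ± 0.18 did not pass the test (adjusted p = 0.128, limma). It did pass when arrays were centred on the median (0.36, adjusted p = 0.0239), under quantile normalization (0.67, adjusted p = 0.0443) and without astrocyte control replicate 2 (0.43, adjusted p = 0.0224), all with limma.

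All 3 binding protein genes of the set were higher in astrocyte cultures. Igfbp2, a binding protein with a preference for IGF2 that is known from fetal brain and glia, ran from 3.91 to 5.03 in neurons and from 6.87 to 8.56 in astrocytes. Its difference was 3.23 ± 0.19 (adjusted p = 3.5e-10, limma), and its second probe gave 3.03 ± 0.18. Igfbp5, which also binds extracellular matrix, ran from 3.14 to 4.03 in neurons and from 6.07 to 7.26 in astrocytes, a difference of 3.10 ± 0.19 (adjusted p = 6.2e-10, limma). Igfbp3, the main carrier of IGFs in serum, ran from 0.52 to 0.99 in neurons and from 1.90 to 3.98 in astrocytes, a difference of 2.34 ± 0.19 (adjusted p = 2.1e-08, limma). In all 3 genes the cell types did not overlap. For Igfbp2 and Igfbp5 the gap between them was wider than the range within either, and for Igfbp3 it was narrower than the range of the astrocyte arrays, whose spread was larger in astrocytes (SD 0.67, n = 8) than in neurons (SD 0.18, n = 8). Summed markers of meningeal fibroblasts ran from 4.37 to 6.39 on astrocyte arrays and from 3.32 to 3.86 on neuron arrays. Those of the choroid plexus ran from 3.38 to 4.95 against 0.58 to 2.21, and those of endothelium and pericytes, of which Cldn5 was never above background, from 2.89 to 4.25 against 1.64 to 2.05. These sums were taken over linear signals, so the brightest genes of a list weigh most, and single genes differed in direction. Of 7 tested meningeal markers 4 were called higher in astrocytes and 3 lower. Of 2 tested choroid plexus markers 1 was higher and 1 lower. Of 5 tested endothelial and pericyte markers 3 were higher and 0 lower. Among the lists given earlier, 5 of 7 astrocyte markers were higher and 1 lower, and 0 of 6 oligodendrocyte lineage markers were higher and 5 lower. Over all units 29.9% were higher and 40.6% lower. The part of such cells in these results was not tested.

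The 4 genes with the widest range over the 16 arrays (SD above 1) were matched to the genes whose centred log2 levels differed least from theirs, among 15695 candidates. Nearest to Igf1 were Arhgap29 and Fhdc1, with root mean square differences of 0.23 and 0.26. Igfbp2 was nearest to Scpep1 (0.27) and Mpp6 (0.31). Igfbp3 was nearest to Smad3 (0.26), a transcription factor of TGF-beta signalling, and Lrrc8c (0.28). Igfbp5 was nearest to Wdr63 (0.22) and Bcam (0.23). In all 8 pairs the shared pattern is mainly the step between the cell types, and the arrays share their slides.

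The rest of the pathway was read from a list of 58 further genes. Of these 54 were tested, 13 were higher and 25 lower in astrocyte cultures, with a median log2 difference of -0.37. The 70.4% called stood next to 70.5% of all units, and a share so near the background is no result about the pathway. Among 4 other binding protein genes tested, Igfbp6 was higher (1.47 ± 0.17) and Igfbp4 lower (-1.62 ± 0.15). Igfbp7, which binds insulin as well as IGFs, was above background on all 8 astrocyte arrays and on none of the 8 neuron arrays. It is counted among the 13 higher genes, a call that rests on neuron values not above background, so no p-value is given. Its level was at least 3.33-fold higher in astrocytes (measured means -4.17 and -7.98). That bound takes the higher of the neuron signal and the lowest signal well above background on each array. All 5 genes of binding protein proteases and their inhibitors were called, where 70.5% of all units were: the protease gene Pappa was higher (1.36 ± 0.36), and Pappa2, Htra1, Stc1 and Stc2 were lower. Stc1, whose product inhibits pappalysins, was above background on all 8 neuron arrays and on 1 of 8 astrocyte arrays.

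Downstream of the receptors, 3 of 8 adaptor genes were higher and 5 lower, next to 29.9% and 40.6% of all units. Shc1, whose product links receptors to the Ras pathway, was higher by 2.87 ± 0.20, and Grb2, its partner, was lower by -1.31 ± 0.18. Of 11 PI3K and Akt genes 2 were higher, among them the catalytic subunit gene Pik3cb (1.55 ± 0.12), and 7 were lower. The lower ones included Gsk3a (-1.67 ± 0.14), which encodes a kinase that Akt inhibits. Foxo6, a forkhead factor known from neurons, was lower by -5.09 ± 0.14, and Foxo1 did not pass the test. In the mTOR branch 1 of 8 genes was called, Tsc1 (-0.62 ± 0.14).

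Of the inhibitors of the pathway 3 of 10 were higher and 5 lower, near the 29.9% and 40.6% of all units. The cytokine-induced inhibitor gene Socs3 was higher (3.47 ± 0.28), as was the lipid phosphatase gene Inppl1 (2.78 ± 0.19). Socs2 was lower by -4.29 ± 0.27, and the receptor-binding adaptor genes Grb10 and Grb14 were also lower. Insrr, the orphan receptor gene of the insulin receptor family, was higher (2.04 ± 0.42), and the insulin genes Ins1 and Ins2 did not pass the test. All adjusted p-values of the called genes are from limma over the same 27559 units.

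**Figure D3:**
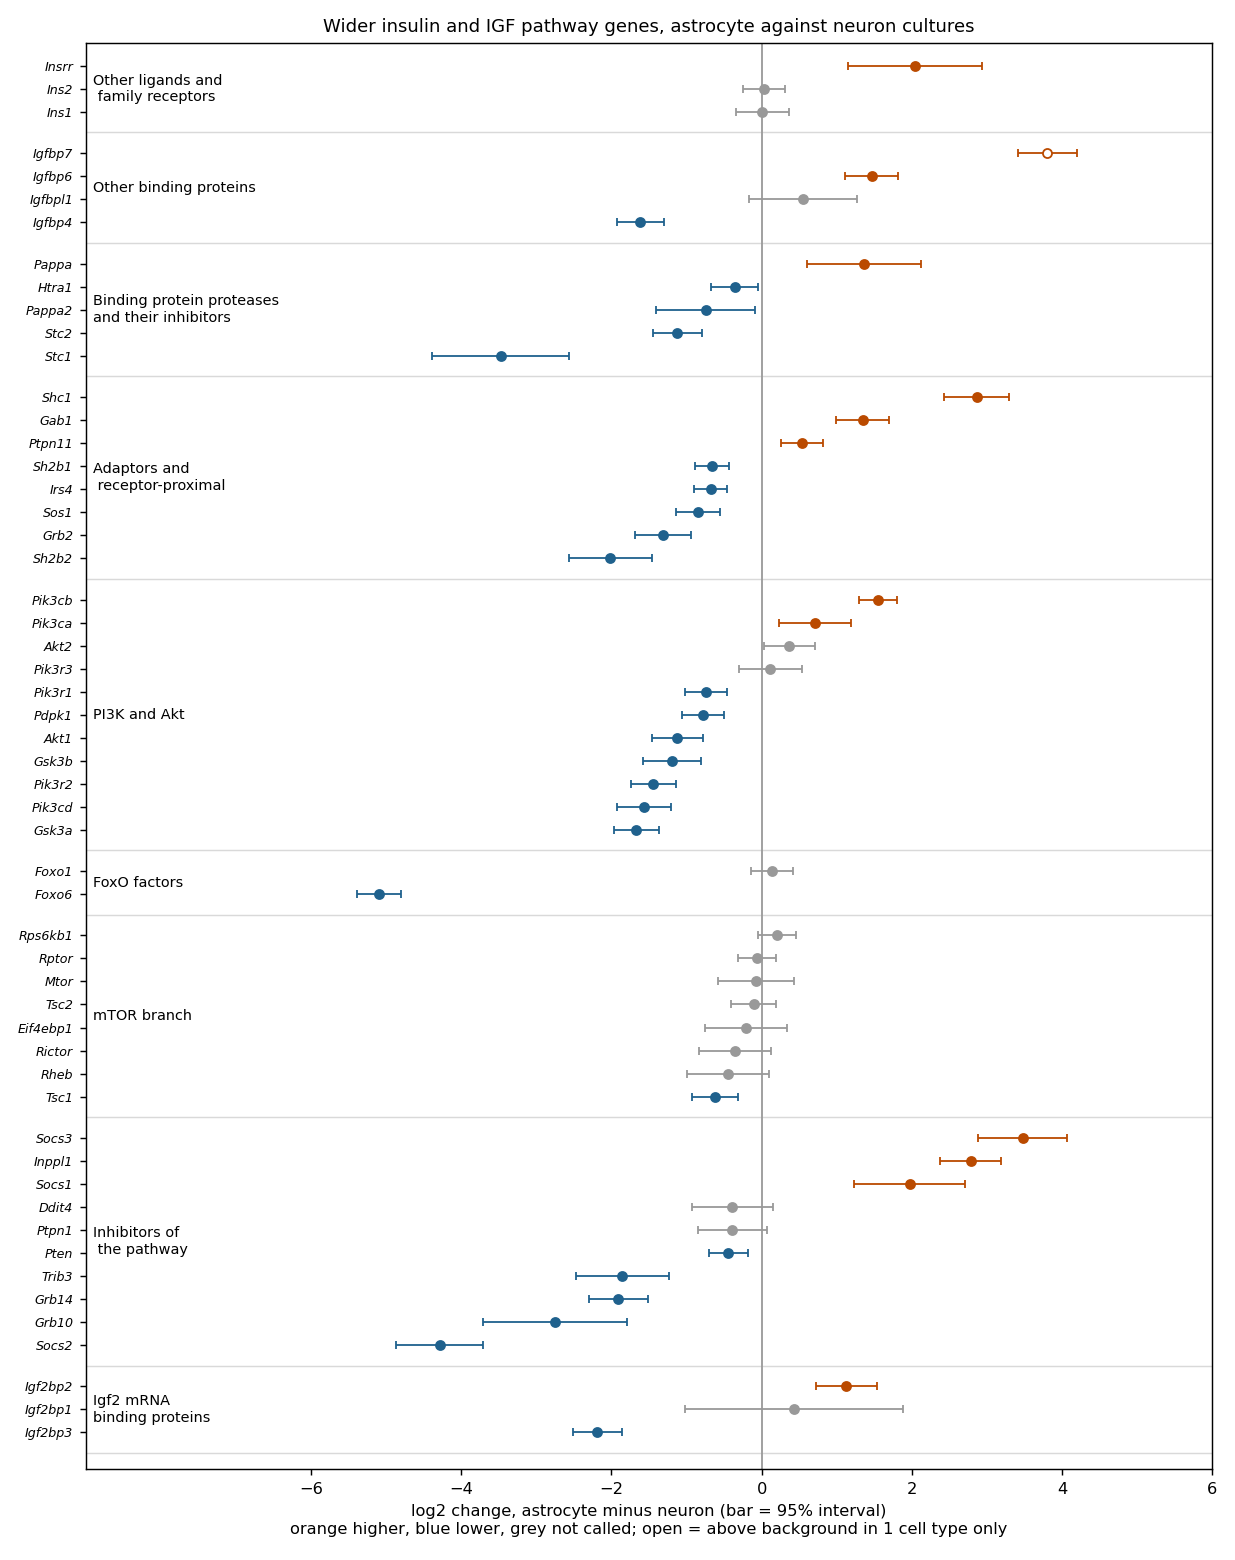
Log2 difference between astrocyte and neuron cultures (x axis, bars are 95% intervals of the limma estimate) for the 54 tested genes of the wider list, grouped by role (y axis). Orange genes were called higher (13) and blue genes lower (25), the open circle of Igfbp7 marks a gene not above background in neurons, and 7 of 8 mTOR branch genes were not called.

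In neurons, 24 h of Klotho was set against vehicle, the question in the study's design for this cell type. None of the 9 tested genes passed (0 of 9, limma, every adjusted p at least 0.998). None had an unadjusted p below 0.05, where 4.12% of all units did. Over all 28847 units 0.125% were called, all of them lower. In the 9 genes 2 differences were positive and 7 negative, and the median was -0.05, next to -0.03 over all units. Controls filled 1 row of the slide and Klotho arrays the other, so row and treatment cannot be told apart. Control and Klotho arrays separated in none of the 10 genes and in 4.12% of all units.

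The intervals in neurons differed in width from gene to gene. Igf1 read -1.32, -1.81, -1.62 and -1.51 on control replicates 1 to 4 and -1.20, -1.95, -1.66 and -1.65 on Klotho replicates 1 to 4. The 2 groups cover the same range, and the difference was -0.05 with a 95% interval of -0.45 to 0.35. Its other probes A_55_P2085984, A_55_P2085974 and A_55_P2031636 gave 0.01, -0.20 and 0.57. The last had an interval up to 1.15 and an unadjusted p of 0.0502 (adjusted p = 0.999, limma over all probes), and its groups overlapped. Igf2r, with the smallest error, differed by -0.10 (95% interval -0.33 to 0.12). Igf1r had the widest interval: it read 2.50, 3.35, 3.66 and 3.66 in controls and 2.47, 3.35, 3.24 and 3.28 with Klotho, a difference of -0.21 (95% interval -0.89 to 0.47). In both groups replicate 1 was the low array and set most of that spread.

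Irs1 in neurons read 1.61, 2.27, 2.66 and 2.60 in controls and 1.65, 2.29, 2.45 and 2.29 with Klotho, a difference of -0.12 (95% interval -0.72 to 0.49), again with replicate 1 lowest in both. Igfbp2 read 4.43, 5.03, 4.07 and 3.91 in controls against 4.40, 4.28, 4.27 and 4.26 with Klotho, a difference of -0.06 (95% interval -0.57 to 0.46). The Klotho arrays lay inside the spread of the controls. Insr, Irs2, Igfbp3 and Igfbp5 differed by -0.01, 0.10, -0.03 and 0.01 on the log2 scale.

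None of 54 tested genes of the wider list passed in neurons either. The 3 with the smallest p were the insulin gene Ins2 (0.25 ± 0.11), the phosphatase gene Ptpn11 (-0.20 ± 0.12) and the adaptor gene Sh2b1 (0.21 ± 0.12), each with an adjusted p of 0.998 (limma). Igfbp1, a binding protein made mainly by liver, differed by -0.56 ± 0.34 and was above background on 4 control and 2 Klotho arrays. It is named here after its values were seen, because markers of liver were lower in the Klotho neurons. Their summed level was 2.54 to 3.85 in controls and 1.89 to 2.37 with Klotho. Of these 6 markers 4 were called lower, next to 0.125% of all units. That list was picked because liver genes were known to differ between neuron arrays, so the count is no independent result. Alb and Ahsg were never above background with Klotho and passed the filter only through the controls. Over all spots 65.0% to 67.3% were above background on the neuron control arrays and 57.9% to 62.0% on the neuron Klotho arrays, without overlap. The part of liver RNA and of this detection difference in these results was not tested.

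In astrocytes by scanner file, none of the 9 tested genes passed (0 of 9, limma), nor did any of the 27145 units (0%). At an unadjusted p below 0.05 there were 966 units, or 3.56%, and 1 of the 9 genes, Igfbp3. Igfbp3 read 2.92, 3.10, 2.48 and 1.90 in controls and 3.28, 3.80, 2.92 and 3.98 with Klotho. Of the Klotho arrays 3 lay above all controls and 1 within them. The difference was 0.89 ± 0.34 (95% interval 0.11 to 1.67) and did not pass (limma, adjusted p = 1.00).

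Igfbp2 came next in this assignment, at 7.49, 7.29, 6.87 and 7.31 in controls and 8.56, 7.97, 7.39 and 7.58 with Klotho. The groups overlapped at 1 Klotho array, and the difference of 0.64 ± 0.29 did not pass (95% interval -0.03 to 1.31). Its second probe gave 0.64 as well. Of the other genes Igf2r, Igf1r, Igf1 and Igfbp5 differed by 0.39, 0.20, 0.11 and 0.15, and Insr, Irs1 and Irs2 by -0.26, -0.09 and -0.12. The groups separated in none of the 9, against 2.51% of all units. Under this assignment the controls lay on one slide and the Klotho arrays on another, so slide and treatment cannot be told apart. Within slide rows 1 and 2, each 2 arrays against 2, Igfbp3 differed by 0.53 and 1.26 and Igfbp2 by 0.88 and 0.40. Beside these values, 7 of 7 microglial markers had negative differences (median -0.38) and positive ones were found for 5 of 5 tested meningeal markers (median 0.41), 3 of 3 tested choroid plexus markers (median 0.63) and 3 of 3 interneuron markers (median 1.70). None of these was called. Of the 3 interneuron markers only 1 was above background on control replicates 1 and 2, against 3 on every Klotho array. The others passed the filter only through the Klotho arrays, and the summed level was low throughout (-3.14 to -1.15), so their median is no result. Choroid plexus markers above background numbered 2 to 3 of 4 on control arrays and 3 to 4 of 4 on Klotho arrays. On the Klotho array where Igfbp2 was highest, the summed choroid plexus level (4.95) and meningeal level (6.39) were both the highest of the astrocyte arrays. The choroid plexus sum did not follow Igfbp2 further. Klotho replicate 2 read 7.97 for Igfbp2 and 3.97 for choroid plexus, and Klotho replicate 3 read 7.39 and 4.23. The part of these cells was not tested.

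By value table the same 8 arrays gave another picture. Again 0 of 9 genes and 0% of 27221 units passed (limma), with 623 units or 2.29% and 0 of the 9 genes at an unadjusted p below 0.05. Igfbp3 then read 2.92, 3.28, 2.48 and 2.92 on the arrays called controls and 1.90, 3.10, 3.80 and 3.98 on those called Klotho, listed in no order of replicates. The difference shrank to 0.29 ± 0.45 (95% interval -0.72 to 1.31), since the lowest array of all was now a Klotho array. Igfbp2 differed by -0.04 ± 0.37, and Igfbp5 by -0.49 ± 0.26, the largest of the 9. Igf1, Igf1r, Igf2r and Insr differed by 0.25, 0.27, 0.24 and 0.23, and Irs1 and Irs2 by 0.01 and -0.05. Choroid plexus markers now had negative differences in 3 of 3 tested (median -0.59), and 2 of 5 meningeal markers positive ones. The groups separated in none of the 9, against 1.57% of all units. By brightest probe the sign was opposite under the 2 assignments in 4 of the 9 genes, Insr, Irs1, Igfbp2 and Igfbp5. The share over all units was not computed. By scanner file and by value table, the second Igfbp2 probe gave 0.64 and 0.01, and Insr probe A_55_P2173927 gave 0.48 and 0.01. Insr probe A_55_P2172566 gave -0.10 and 0.43, and the second Irs1 probe 0.03 and -0.004. Here each slide held both treatments, but all controls sat in column 3 and all Klotho arrays in column 4. Within the first and second astrocyte slide, each 2 arrays against 2, Igfbp3 differed by -0.20 and 0.79 and Igfbp5 by -0.44 and -0.55. With the slide as a block 0 of the 9 genes passed (limma). On the 4 arrays whose treatment is the same in both, 2 against 2, 0 of the 9 genes passed.

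**Figure D4:**
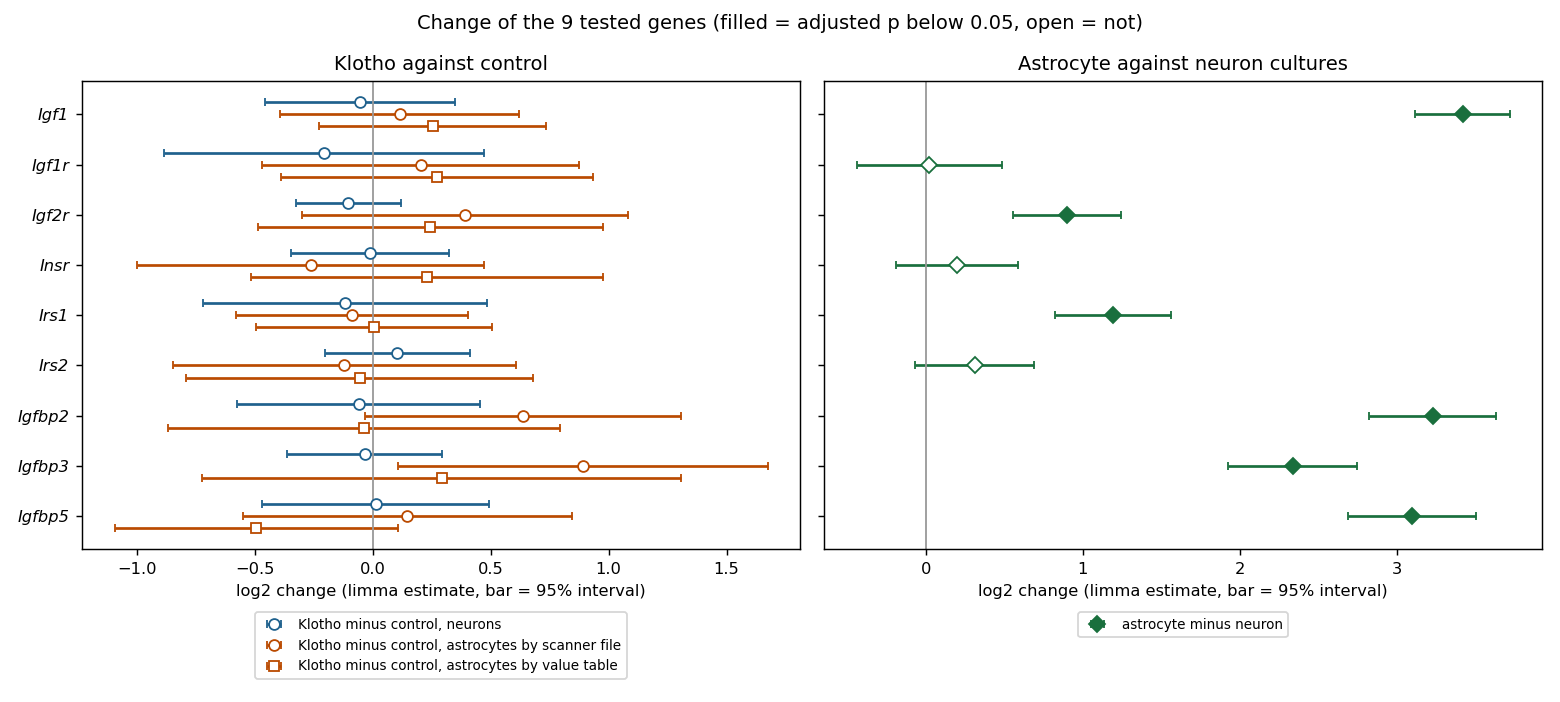
Log2 change of the 9 tested genes (x axis, limma estimate with its 95% interval; y axis, genes), with Klotho against control on the left and astrocyte against neuron on the right. Filled symbols passed an adjusted p of 0.05: none on the left, where circles and squares in orange show the 2 assignments of the astrocyte arrays, and 6 of 9 on the right.

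Of the wider list none passed in astrocytes under either assignment. By scanner file 53 genes were tested, and the smallest p belonged to the protease gene Htra1 (0.74 ± 0.24), the binding protein-like gene Igfbpl1 (0.82 ± 0.27) and the inhibitor gene Socs1 (1.89 ± 0.63), each with an adjusted p of 1.00 (limma). With the arrays assigned by value table, 52 were tested, and the 3 were the protease gene Pappa (1.03 ± 0.36), Socs3 (0.97 ± 0.35) and the adaptor gene Sh2b2 (0.91 ± 0.42), likewise at 1.00 (limma). The 2 assignments share no gene among these 3. Htra1 and Igfbpl1 had the opposite sign by value table, at -0.27 and -0.01.

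The difference between the Klotho effects of astrocytes and neurons was tested by an interaction term over all 16 arrays. By scanner file it called 0 of 9 genes (limma) and 0.0749% of 30696 units. The largest value in this assignment was that of Igfbp3, 0.92 ± 0.39 (95% interval 0.10 to 1.75, adjusted p = 0.999, limma), the only one of the 9 with an unadjusted p below 0.05, a level that 4.87% of all units reached. Igfbp2 followed at 0.70 ± 0.38 and Igf2r at 0.50 ± 0.33, and Igf1r, Igf1, Igfbp5, Irs1, Irs2 and Insr were at 0.41, 0.17, 0.13, 0.03, -0.22 and -0.25. In the wider list Htra1 (0.96 ± 0.30, adjusted p = 0.786, limma), Socs1 (1.73 ± 0.70) and Insrr (2.04 ± 0.84) had the smallest p, and 0 of 56 passed. By value table the interaction again called 0 of the 9 genes (limma), and 19 of 30756 units (0.0618%), but values and order changed. Igfbp5 was then the largest at -0.51, followed by Igf1r at 0.48, Igf2r at 0.35 and Igfbp3 at 0.32. Igf1, Insr, Irs1, Irs2 and Igfbp2 were at 0.31, 0.24, 0.12, -0.16 and 0.02.

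In 7 of the 9 genes, all but Igfbp2 and Igfbp3, the larger of 2 differences that ran with the replicate number or the slide row was above that gene's largest Klotho difference in either cell type and assignment. For Igf1r these were 0.94 and 0.27, and for Irs1 0.80 and 0.12. These splits were made after the values were seen, as ones that set arrays apart, and are described without a test. Taking the larger of 2 such splits favours them by construction. The count of 7 is therefore no trait of these genes, and its share over all units was not computed. The 2 neuron arrays of replicate 1, one per treatment and both in the first column of the slide, stood outside the range of the other 6 neuron arrays in 6 of the 9 genes, which was so for 56.6% of all units. Igf1r was 0.94 lower on the log2 scale on these 2 arrays (2.47 and 2.50 against 3.24 to 3.66), Irs1 was 0.80 lower and Insr 0.31 lower. Igf1, Igf2r and Igfbp5 were higher there, Igfbp5 by 0.58. The second Irs1 probe overlapped, at -3.84 to -3.41 on the other 6 arrays and -3.74 and -4.00 on these 2. Insr probe A_55_P2173927 overlapped too, at -3.16 to -2.52 on the other 6 and -2.63 and -2.59 on these 2. Insr probe A_55_P2172566 did not, at -1.50 to -1.18 on the other 6 and -1.84 and -1.66 on these 2. Summed markers moved with these arrays too: interneuron markers read 7.11 to 7.12 there and 6.28 to 6.41 on the others, and astrocyte markers 6.63 to 7.01 against 7.37 to 7.64. Their part in the values was not tested. Without both arrays, 0 of the 9 genes passed for Klotho in neurons and the same number, 6, for the cell types.

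Astrocyte arrays differed by slide row. By the brightest probes of Insr, Irs1 and Irs2 the 4 arrays of row 2 lay above the 4 of row 1. The rows were apart in 42.3% of all units in one direction or the other and in 18.7% in this one. For the other probes of Insr and Irs1 the rows overlapped, with means higher in row 2. Insr read 0.33 to 0.55 in row 2 and -0.85 to 0.16 in row 1. Irs2 read 4.57 to 5.15 against 3.92 to 4.37, and Irs1 3.46 to 3.72 against 3.04 to 3.39. Summed markers separated by row as well. Those of astrocytes read 8.21 to 8.60 in row 2 and 8.77 to 8.98 in row 1, and those of meningeal fibroblasts 4.37 to 5.46 and 5.61 to 6.39. Markers of neurons (5.77 to 6.71 against 5.03 to 5.68), the oligodendrocyte lineage (6.37 to 6.96 against 4.90 to 6.36) and endothelium and pericytes (3.88 to 4.25 against 2.89 to 3.65) were higher in row 2. Their part in these values was not tested. Each row held 2 arrays of each slide. With the row as a block in the fit, 0 of the 9 genes passed for Klotho under either assignment (limma).

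**Figure D5:**
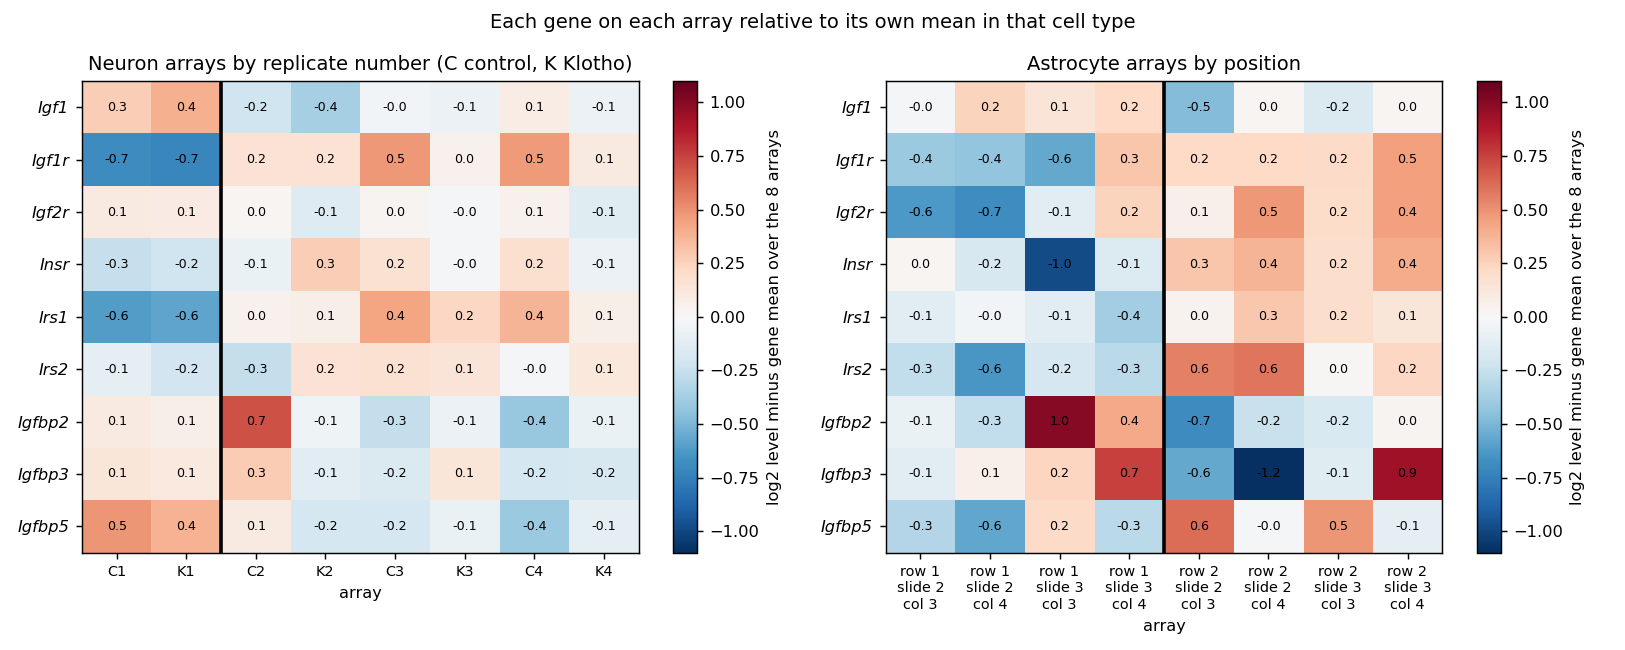
Log2 level of each of the 9 tested genes (rows) on each array (columns) minus that gene's mean over the 8 arrays of the cell type; red is above and blue below the mean. On the left, neuron arrays are ordered by replicate number, and the 2 arrays of replicate 1, left of the line, are low for Igf1r and Irs1 and high for Igfbp5; on the right, astrocyte arrays are ordered by slide row, and row 2, right of the line, is high for Insr, Irs1 and Irs2.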

How the data were processed

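Per the labels' protocols, RNA was column-purified and 200 ng was labelled with Cy3. The scanner files are, per the file headers, the output of Agilent Feature Extraction 12.0.3.1 (protocol GE1_1200_Jun14, array design 028005, mouse build NCBI37), and the deposited signal columns hold linear intensity values with background subtracted and no scaling across arrays. The deposited flags mark spots well above background or outlying. The value table was deposited as a score with no stated unit: the authors' values equal the z-score of 1 array's log2 intensity to within 0.005, and the next best array is at least 1.666 away. No column of per-sample values was left unused (0).

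Each array has 62976 spots, 3671 of them controls, and 0 were saturated. Population outliers were dropped, spots of a probe averaged, and log2 intensity was centred on the array's 75th percentile, so that a level of 0 is that percentile. Means of the probes of a gene were compared to choose its brightest. Signals of different genes were added, on the linear scale, for the summed marker levels, and probes of a gene were averaged in an alternative. Symbols came from a RefSeq table of GRCm38.p6 through unversioned accessions, which named 28331 probes (50.9%). A unit was tested if 1 or more of the groups compared (for cell types, 1 or both types) had it well above background on every array. limma 3.58.1 in R 4.3.3 (lmFit, eBayes) was used with Benjamini-Hochberg adjustment at 0.05; the fits were tested on simulated data. Within-cell-type fits used 8 arrays, the interaction and cell type fits all 16. The median half-width of a 95% interval was 0.39 in neurons, 0.76 in astrocytes by scanner file and 0.44 between cell types, and 4 arrays per group limit the precision.

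The 10 genes, the lists and the tests were chosen with earlier results of these data known. The 9 tested genes of the 10 are given in every comparison. From the wider list the called genes with the smallest p were named, at most 6 per direction, or the 3 with the smallest p where fewer than 2 were called; other called genes of a role are named with it after their values were seen. Alternatives were normexp (offset 50, on median signals), median and quantile scaling, 2 other filters, probe averages, the value table, leaving out arrays, and blocks. Same-numbered samples sit at matching slide positions in neurons and in astrocytes by scanner file. Their deviations from the group means correlated by 0.21 to 0.80 in neurons and 0.17 to 0.76 in astrocytes by scanner file. By value table same-numbered samples sat in different columns, and their deviations correlated from -0.79 to 0.69. The best partner of replicate 2 was number 4 in neurons and number 1 in astrocytes by scanner file. The main fits and the intervals printed are unpaired, and the pairing entered only as a replicate block among the alternatives. 1 gene of the wider list is not reported here and was left out of its counts. Promoter sequences are RefSeq's. Python 3.11.15 prepared the tables.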

Additional observations from a re-analysis of the deposited data

Results flagged for a closer look

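In 3 of 60 groups of 4 arrays, 1 array lay far from the other 3 by Dixon's criterion. Chance gives about 1 group in 20, so this count is no more than chance gives. All 3 are the same array, neurons with Klotho, replicate 1. Igf1r was lowest there at 2.47, with the other 3 arrays at 3.24 to 3.35. Irs2 was lowest at 4.04, with the others at 4.36 to 4.41. Igfbp2 was highest at 4.40, with the others at 4.26 to 4.28, a gap that stands out because those 3 lie so close together. The control array of the same number was low for Igf1r too, at 2.50.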

How the results depend on the processing

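Klotho called 0 of the 9 genes in neurons, in astrocytes under both assignments and in the interaction under all alternatives run, and every leave-one-out range of these counts is 0 to 0. Between cell types 6 or 7 were called, the leave-one-out range being 6 to 7. The pairing by replicate number, entered as a replicate block, gave 0 called in neurons, 0 in astrocytes, 0 in the interaction and 6 between cell types. Of 972 single-gene values under alternatives 72 had another sign than the main value, all in uncalled differences, 4 became called (Irs2 under 3 and Insr under 1, as given above) and 0 called values were lost. Counts over all units depended more on the settings. In neurons 36 units were called, against 6 with normexp, 3 where every array had to be above background, 57 with the value table, 22 with the block, 16 to 53 leaving out 1 array, 14 without both arrays of replicate 1 (chosen after seeing the data), and 7152 without a filter on dim probes, 6917 of them higher. In astrocytes by scanner file 0 became 1 without control 3, 15 without Klotho 3, and 2 on the 4 undisputed arrays. In the interaction 23 became 9 with normexp, 33 with quantile normalization, 0 where every array had to be above background and 150 without astrocyte Klotho 3. The cause was not tested. Between cell types the count ran from 15079, where every array had to be above background, to 23064 without a filter on dim probes.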

Other observations

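Several genes of the wider list were not above background on every array. Grb10, which encodes an adaptor that binds the insulin and IGF1 receptors, was above background on all 8 neuron arrays and on 4 of 8 astrocyte arrays. Igfbp1, not tested between the cell types, was above background on 6 of 8 neuron arrays and on 1 of 8 astrocyte arrays. The forkhead factor gene Foxo4 was above background on 1 of 8 astrocyte arrays and on 0 of 8 neuron arrays, and Igfals, which encodes the acid-labile subunit of circulating IGF complexes, on none of the 16.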
